A study of Mus musculus with 8 samples.

Results

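The enzymes that make prostaglandins and leukotrienes were followed in peritoneal macrophages lacking the proprotein convertase FURIN and in wild-type (WT) cells, at rest and during lipopolysaccharide (LPS) stimulation. The group comprised 10 genes, Pla2g4a, Ptgs1, Ptgs2, Ptges, Ptgis, Tbxas1, Alox5, Alox5ap, Lta4h and Alox15, of the 20887 genes named on the arrays. They were chosen by name, with earlier results of these data known, and were taken where a gene probe carries their RefSeq transcript. All 10 were found, with 11 probes of 55681. The brightest probe stood for a gene. KO cells came from LysMCre-fur(fl/fl) mice, in which Cre is expressed from the lysozyme M locus of myeloid cells and removes a floxed Furin gene, and WT cells came from littermates, all on a C57BL/6 background. Cells washed from the peritoneal cavity were kept on plastic for 24 h, nonadherent cells were washed off, and the rest were left without LPS (0 h) or given 1 μg/ml LPS for 1, 4 or 24 h. The age of the mice and the number pooled into a sample were not given in the sources used here, and the deposited growth protocol names 4 h of stimulation for every sample, so that the time was taken from the sample titles. No unstimulated cells were kept for the length of the LPS treatment, and therefore LPS and time in culture cannot be told apart.

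Arachidonic acid is cut out of membrane phospholipids by cytosolic phospholipase A2 and is then handed to one of several oxygenase branches. Cyclooxygenases turn it into prostaglandin H2, from which terminal synthases make prostaglandin E2, prostacyclin or thromboxane A2. 5-lipoxygenase, with its partner protein FLAP, makes leukotriene A4, and 12/15-lipoxygenase makes hydroxylated fatty acids and precursors of resolving mediators. Resting peritoneal macrophages are a classical source of these lipids, and the inducible cyclooxygenase is a textbook LPS response gene of macrophages.

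Each of the 4 time points was measured on 2 Agilent 2-colour arrays. On each, KO and WT RNA from the same time were labelled with opposite dyes, with KO in Cy5 on the array of replicate 1 and in Cy3 on that of replicate 2. The replicates were described as biological, and their spread may include the exchange of dyes. Between 43.8% and 51.3% of the gene spots of a channel were well above background, and each of the 10 genes was well above background in all 16 channels, with no saturated spot. The targeted gene did not follow the labels at every time. Furin was lower in KO on both arrays at 0, 1 and 24 h, with log2 KO/WT ratios from -0.85 to -0.55, but at 4 h its ratios were 0.0012 and 0.33. Where its probe lies relative to the deleted part was not determined. Lyz2, the gene that carries Cre, was lower in KO on all 8 arrays, with log2 ratios from -1.85 to -0.75, the 4 h arrays included. The 4 h samples are therefore called by their labels, and values that rest on them are given with that reservation.

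Of 9 macrophage markers, 8 were measured, and all 8 were well above background in every channel. The cells were not sorted. All 8 B cell markers measured and 7 to 9 of 10 mast cell markers were also above background in every group, and other cell types were marked in part. Of 8 endothelial markers, Cdh5, Tek, Tie1 and Emcn were above background in 0 of 16 channels, whereas Pecam1, Kdr and Egfl7 were in all 16 and Vwf in 15. Of 6 eosinophil markers, Prg2 and Epx were above background in 0 channels, whereas Il5ra and Ear6 were in 16, Siglecf in 12 and Ccr3 in 10. A lower level in these bulk samples may stand for fewer cells of a type or less RNA per cell, which cannot be told apart.

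RefSeq (GRCm38.p6) gave promoter sequences for 7 of the 10 genes, and none for Ptgis, Alox5ap and Alox15. The 250 bases before the annotated start are printed for 3 genes that rose with LPS, Ptgs2 (chr1:150099781-150100030, plus strand), Ptges (chr2:30903298-30903547, minus strand) and Pla2g4a (chr1:149961291-149961540, minus strand, the more upstream of its 2 entries), and for 2 that fell, Ptgs1 (chr2:36230176-36230425, plus strand) and Alox5 (chr6:116461179-116461428, minus strand), to show the letters behind the motif matches given next. All run 5′ to 3′ on the gene's strand, and capitals mark matches to any of 8 motifs searched on both strands.
Ptgs2: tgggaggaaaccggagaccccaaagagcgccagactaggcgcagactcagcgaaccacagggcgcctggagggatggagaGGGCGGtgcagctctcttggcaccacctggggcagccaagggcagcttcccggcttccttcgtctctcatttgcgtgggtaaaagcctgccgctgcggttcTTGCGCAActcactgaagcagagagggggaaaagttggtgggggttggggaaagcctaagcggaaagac
Ptges: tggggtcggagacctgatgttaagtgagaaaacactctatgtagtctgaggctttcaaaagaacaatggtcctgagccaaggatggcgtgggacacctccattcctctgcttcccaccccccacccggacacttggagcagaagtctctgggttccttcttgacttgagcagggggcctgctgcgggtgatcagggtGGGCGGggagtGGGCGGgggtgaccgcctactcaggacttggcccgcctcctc
Pla2g4a: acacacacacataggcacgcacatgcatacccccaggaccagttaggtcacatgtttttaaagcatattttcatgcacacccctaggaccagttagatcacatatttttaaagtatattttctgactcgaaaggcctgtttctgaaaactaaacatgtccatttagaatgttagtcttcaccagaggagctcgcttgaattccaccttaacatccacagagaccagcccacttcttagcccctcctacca
Ptgs1: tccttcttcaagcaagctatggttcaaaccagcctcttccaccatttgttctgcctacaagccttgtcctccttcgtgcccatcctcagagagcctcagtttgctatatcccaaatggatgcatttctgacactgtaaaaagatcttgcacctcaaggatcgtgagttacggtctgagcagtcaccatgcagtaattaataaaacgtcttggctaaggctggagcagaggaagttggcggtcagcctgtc
Alox5: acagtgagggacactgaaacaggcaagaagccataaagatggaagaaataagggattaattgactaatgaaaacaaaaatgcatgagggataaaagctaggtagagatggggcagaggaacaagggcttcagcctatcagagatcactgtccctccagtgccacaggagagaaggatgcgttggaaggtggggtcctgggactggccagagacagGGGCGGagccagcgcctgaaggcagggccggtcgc
The TATA box was searched as TATAAA and the core that C/EBP factors bind as TTGCNNAA. For basic helix-loop-helix proteins the E-box CACGTG was used, and for cAMP response elements their core TGACG. AP-1 sites were searched as TGANTCA, and the GC box bound by Sp1 as GGGCGG. The interferon-stimulated response element and the NF-κB motif were the remaining 2. In the Ptgs2 sequence the capitals are a GC box, which began 170 bases before the start, and TTGCGCAA, a C/EBP core, which began 69 bases before it. An E-box and a cAMP response element core overlapped each other just past the annotated start of Ptgs2, beginning at bases 17 and 14 of the transcript. Within 250 bases upstream, TTGCNNAA was found in 9.56% of all 32851 promoters and GGGCGG in 32.7%, and over the full 300 bases CACGTG was found in 7.15% and TGACG in 20.8%. Ptges held 2 GC boxes and Alox5 held 1, and the printed Pla2g4a and Ptgs1 sequences held no match to any of the 8. A match is a string of letters, not a shown binding site, and no match says only that these letters were not in the window.

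During LPS treatment the pathway changed in both directions. At 4 h, 3 of the 10 genes were higher and 7 were lower than at 0 h in WT cells, and the same split was found in KO cells. Pla2g4a, Ptgs2 and Ptges, which form a line from arachidonate release to prostaglandin E2, were the 3 that rose in both genotypes, whereas Ptgs1, Ptgis, Tbxas1, Alox5, Alox5ap, Lta4h and Alox15 fell. Of the 36927 genes and transcripts tested, 15.5% were called higher and 19.3% lower in WT, and 16.2% and 19.7% in KO. At 24 h the calls were again 3 higher and 7 lower in each genotype, against 13.5% and 17% of all in WT and 12.7% and 15.9% in KO. At 1 h, Ptgs2 and Ptges alone were called, both higher, in each genotype, where 3.39% of all were called higher in WT and 3.09% in KO. From 4 to 24 h, 3 were called higher and 5 lower in WT, against 15.1% and 14.6% of all, and 2 and 6 in KO, against 15.6% and 15.1%. With loess normalization alone the WT count of that step was 3 higher and 2 lower, where 22.4% of all were called higher and 5.69% lower. The median log2 change of the 10 genes was -1.75 in WT and -1.79 in KO at 4 h and -1.65 and -2.27 at 24 h, where the median over all genes and transcripts tested was between -0.016 and 0.0014. These tests used limma's separate-channel fit over all 16 channels, with a false discovery rate (Benjamini-Hochberg) computed over everything tested and a threshold of 0.05.

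**Figure D1:**
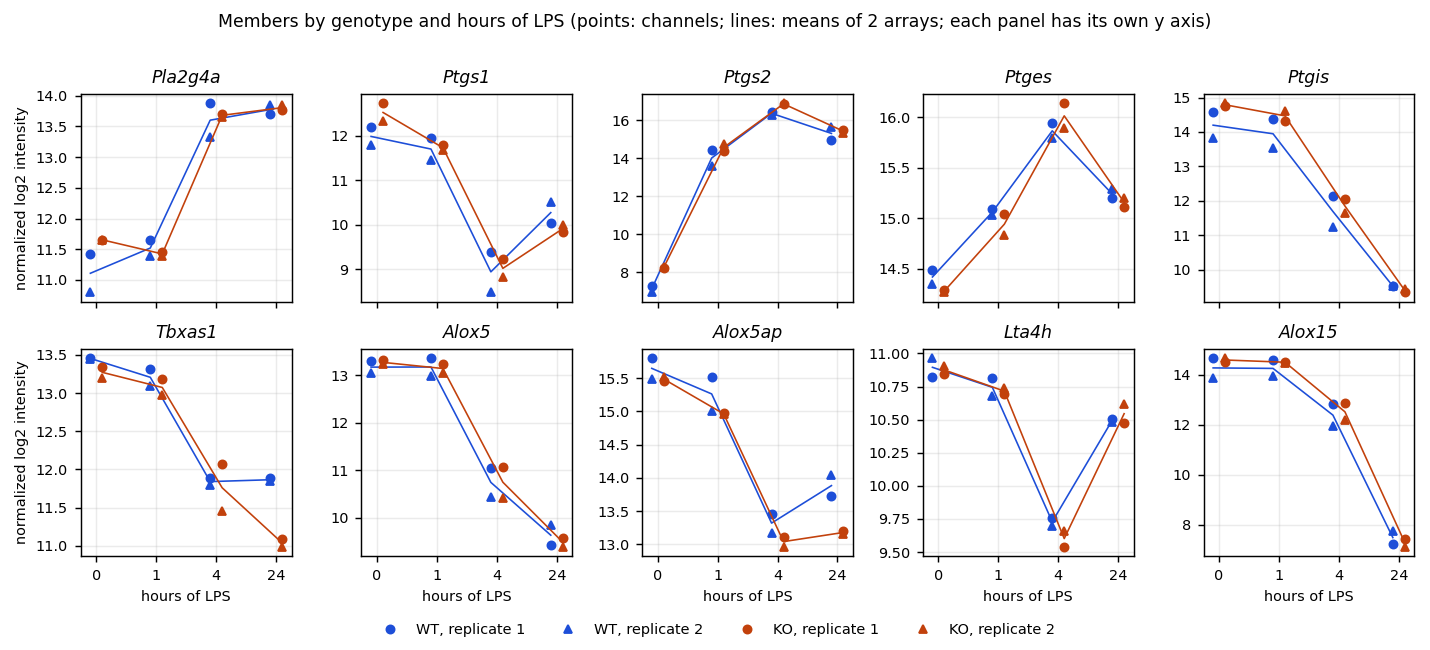
Normalized log2 intensity of the 10 genes (y axis, a scale of its own in each panel) against hours of LPS (x axis, evenly spaced), for WT (blue) and KO (red), with circles for replicate 1, triangles for replicate 2 and lines through the means of 2 arrays. Ptgs2 climbs from 6.96 to 8.28 at 0 h to 16.27 to 16.88 at 4 h, Alox15 falls to 7.12 to 7.76 at 24 h, and Ptgs1 and Lta4h are lowest at 4 h.

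Pla2g4a encodes the cytosolic phospholipase A2 that frees arachidonate. Its log2 intensity in WT cells was 11.41 and 10.80 without LPS, 11.65 and 11.39 after 1 h, 13.87 and 13.33 after 4 h, and 13.70 and 13.85 after 24 h (replicates 1 and 2). In KO cells it was 11.65 and 11.65 without LPS, 11.46 and 11.39 after 1 h, 13.71 and 13.66 after 4 h, and 13.76 and 13.85 after 24 h. Every channel at 4 and 24 h lay above every channel at 0 and 1 h in both genotypes. The change from 0 h was 2.49 ± 0.19 (SE, adjusted p = 1.28e-07) in WT at 4 h, a 5.64-fold rise, and 2.03 ± 0.19 (SE, adjusted p = 9.82e-07) in the cells labelled KO, a 4.08-fold rise. From 4 to 24 h it moved by 0.17 in WT and 0.12 in KO, and neither step was called.

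Ptgs1 and Ptgs2, the constitutive and the inducible cyclooxygenase, went opposite ways. Ptgs2 read 7.30 and 6.96 without LPS, 14.44 and 13.58 after 1 h, 16.45 and 16.27 after 4 h, and 14.97 and 15.64 after 24 h in WT. It read 8.24 and 8.28 without LPS, 14.39 and 14.74 after 1 h, 16.84 and 16.88 after 4 h, and 15.50 and 15.34 after 24 h in KO. Its probe was spotted 10 times on each array, with an SD between spots of 0.057 to 0.22 in a channel, so that spot noise was small beside these steps. The rise was 6.88 ± 0.26 (SE, adjusted p = 1.36e-09) at 1 h and 9.23 ± 0.26 (SE, adjusted p = 1.53e-11) at 4 h in WT, or 118-fold and 601-fold. In KO it was 6.31 ± 0.26 (SE, adjusted p = 4.18e-09) at 1 h and 8.60 ± 0.26 (SE, adjusted p = 2.96e-11) at 4 h, or 79.2-fold and 389-fold. Among 36927 genes and transcripts this was the rise of rank 6 at 1 h in both genotypes, and of rank 2 in WT and 3 in KO at 4 h. By 24 h Ptgs2 was 1.06 lower than at 4 h on the log2 scale in WT and 1.44 lower in KO, still 289-fold and 143-fold above 0 h. That decline was called in both (adjusted p = 0.00593 and 0.000578), and in WT the call was lost without replicate 1 at 4 h (adjusted p = 0.0593), without replicate 1 at 24 h (0.104) and with loess normalization alone (0.123).

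Ptgs1 read 12.18 and 11.78 without LPS, 11.95 and 11.45 after 1 h, 9.40 and 8.49 after 4 h, and 10.03 and 10.52 after 24 h in WT and 12.72 and 12.32 without LPS, 11.78 and 11.68 after 1 h, 9.23 and 8.82 after 4 h, and 9.83 and 9.99 after 24 h in KO. It was lowest at 4 h in both genotypes and higher again at 24 h, when every channel still lay below those at 0 h. The change was -3.04 ± 0.27 (SE, adjusted p = 5.44e-07) at 4 h in WT, an 8.21-fold fall, and -3.50 ± 0.27 (SE, adjusted p = 1.41e-07) in the cells labelled KO, an 11.3-fold fall. The return from 4 to 24 h was 1.33 ± 0.27 (SE, adjusted p = 0.00147) in WT and 0.89 ± 0.27 (SE, adjusted p = 0.0199) in KO. Without replicate 2 at 4 h the WT value was 0.87 and was still called. The KO call was lost without replicate 2 at 4 h (adjusted p = 0.0653), without either array at 24 h (0.0532 and 0.109) and with the scanner software's processed signals (0.0736). At 1 h Ptgs1 differed from 0 h by -0.79 in KO, which was called with the replicate number as a block (adjusted p = 0.0370) and not without it (0.105). That difference was also called without either array at 4 h (0.0395). In WT Ptgs1 moved by -0.28 at 1 h, which was not called. With the block 2 of the 10 were called lower at 1 h in KO, Ptgs1 and Alox5ap (adjusted p = 0.0482), where 6.79% of all were.

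The terminal prostaglandin synthases diverged. Ptges, the inducible microsomal prostaglandin E synthase that acts after Ptgs2, read 14.48 and 14.35 without LPS, 15.09 and 15.03 after 1 h, 15.94 and 15.79 after 4 h, and 15.20 and 15.29 after 24 h in WT and 14.29 and 14.27 without LPS, 15.04 and 14.84 after 1 h, 16.14 and 15.89 after 4 h, and 15.11 and 15.21 after 24 h in KO. It peaked at 4 h, with all channels above those of the other times. The change was 1.45 ± 0.11 (SE, adjusted p = 1.19e-07) in WT and 1.74 ± 0.11 (SE, adjusted p = 2.16e-08) in the cells labelled KO, or 2.73-fold and 3.33-fold. The size of this rise depended on the probe. A second, dimmer Ptges probe read 10.09 and 10.25 in WT at 0 h and 14.58 and 14.35 at 4 h, and its mean change at 4 h was 4.30 in WT and 4.56 in KO. At 24 h the brighter probe had returned to 0.82 above 0 h in WT, whereas the dimmer one was still 3.79 above. Both probes rose in both genotypes, and which of them follows the transcript more closely was not tested.

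Ptgis, which makes prostacyclin, fell at 4 h and again by 24 h. It read 14.58 and 13.81 without LPS, 14.36 and 13.53 after 1 h, 12.13 and 11.25 after 4 h, and 9.52 and 9.52 after 24 h in WT. It read 14.75 and 14.83 without LPS, 14.32 and 14.61 after 1 h, 12.05 and 11.65 after 4 h, and 9.35 and 9.44 after 24 h in KO. All 4 channels at 24 h lay below all at 4 h, and those below all at 0 h. The change at 24 h was -4.68 ± 0.31 (SE, adjusted p = 5.38e-08) in WT, a 25.5-fold fall, and -5.39 ± 0.31 (SE, adjusted p = 1.46e-08) in KO, a 42.0-fold fall. Counted from the lowest, these were ranks 23 and 10 of 36927. Endothelial cells are a known site of prostacyclin synthesis. Their markers Cdh5, Tek, Tie1 and Emcn were not above background in any channel, but the other 4 of the list were in 15 or 16 and went both ways at 24 h. On the log2 scale Kdr changed by -0.66 in WT and -0.81 in KO and Vwf by -1.26 and -1.19, both called lower, Egfl7 by 0.74 and 0.64, called higher, and Pecam1 by 0.25 in each, which was not called. The 13 mesothelial and fibroblast markers measured had a mean log2 intensity between 6.70 and 7.14 in every channel, with 4 to 9 of them above background. Most of the 13 were not called at 24 h. Of the 3 above background in all 16 channels, Dcn changed by 2.84 in WT and 2.99 in KO, called in both, Col1a2 by 0.49 and 0.56, called in KO, and Krt18 by -0.62 and -0.57, called in WT, and Upk1b, above background in 1 channel, was called lower in KO (-0.34). The part of these cell types in the fall of Ptgis was not tested.

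Tbxas1, thromboxane synthase, fell less far. It read 13.46 and 13.45 without LPS, 13.32 and 13.09 after 1 h, 11.88 and 11.80 after 4 h, and 11.88 and 11.85 after 24 h in WT and 13.34 and 13.20 without LPS, 13.18 and 12.97 after 1 h, 12.07 and 11.45 after 4 h, and 11.09 and 10.99 after 24 h in KO. In WT the level at 24 h was close to that of 4 h, and in KO it was lower. The change at 4 h was -1.61 ± 0.16 (SE, adjusted p = 1.67e-06) in WT and -1.51 ± 0.16 (SE, adjusted p = 3.25e-06) in the cells labelled KO. From 4 to 24 h it was 0.024 ± 0.16 (SE, adjusted p = 0.947) in WT and -0.72 ± 0.16 (SE, adjusted p = 0.00279) in KO, and the KO step was lost with loess normalization alone (adjusted p = 0.367). The KO channels at 4 h lay apart, and without replicate 1 at 4 h the KO step was -0.41 (adjusted p = 0.0408).

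**Figure D2:**
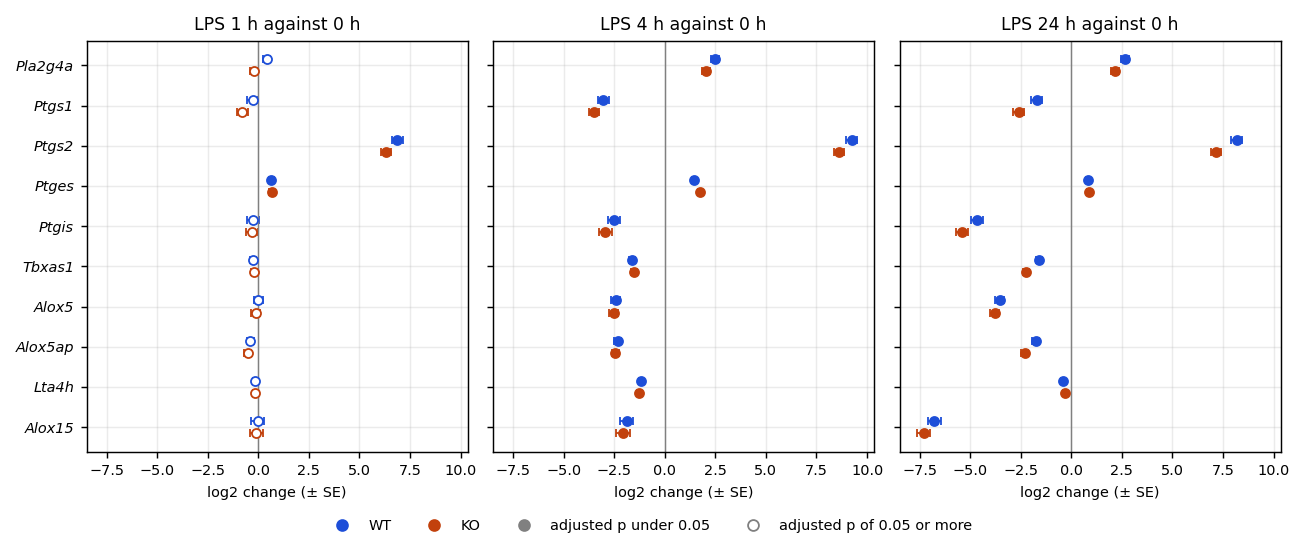
Log2 change from 0 h after 1, 4 and 24 h of LPS (x axis, mean ± SE of limma's separate-channel fit, 2 arrays per time) for each gene (y axis), in WT (blue) and KO (red), with filled points for an adjusted p under 0.05. At 4 and 24 h Pla2g4a, Ptgs2 and Ptges lie above 0 and the other 7 genes below it in both genotypes.

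The leukotriene genes fell together at 4 h. Alox5, the 5-lipoxygenase that starts leukotriene synthesis, read 13.30 and 13.04 without LPS, 13.36 and 12.98 after 1 h, 11.04 and 10.44 after 4 h, and 9.42 and 9.84 after 24 h in WT and 13.31 and 13.23 without LPS, 13.23 and 13.06 after 1 h, 11.07 and 10.42 after 4 h, and 9.58 and 9.39 after 24 h in KO. At 1 h neither genotype was called against 0 h, and all channels at 24 h were below all at 4 h. The change at 4 h was -2.43 ± 0.22 (SE, adjusted p = 8.72e-07) in WT and -2.52 ± 0.22 (SE, adjusted p = 6.03e-07) in the cells labelled KO. At 24 h it was -3.54 ± 0.22 (SE, adjusted p = 3.67e-08) in WT, an 11.6-fold fall, and -3.79 ± 0.22 (SE, adjusted p = 2.09e-08) in KO, a 13.8-fold fall. Alox5ap encodes FLAP, the membrane protein that presents arachidonate to 5-lipoxygenase. It read 15.80 and 15.49 without LPS, 15.52 and 15.01 after 1 h, 13.46 and 13.18 after 4 h, and 13.72 and 14.05 after 24 h in WT and 15.45 and 15.52 without LPS, 14.97 and 14.96 after 1 h, 13.12 and 12.97 after 4 h, and 13.20 and 13.16 after 24 h in KO. Its fall was complete at 4 h, with -2.33 ± 0.17 (SE, adjusted p = 8.04e-08) in WT and -2.44 ± 0.17 (SE, adjusted p = 5.19e-08) in the cells labelled KO. From 4 to 24 h it moved by 0.56 ± 0.17 (SE, adjusted p = 0.0199) in WT and 0.14 ± 0.17 (SE, adjusted p = 0.637) in KO. The WT step was lost without replicate 2 at 4 h (adjusted p = 0.183) and without replicate 2 at 24 h (0.220).

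Lta4h, leukotriene A4 hydrolase, makes leukotriene B4 and changed least of the 10 genes at 4 h. It read 10.82 and 10.97 without LPS, 10.81 and 10.67 after 1 h, 9.76 and 9.70 after 4 h, and 10.51 and 10.48 after 24 h in WT and 10.85 and 10.90 without LPS, 10.69 and 10.74 after 1 h, 9.54 and 9.66 after 4 h, and 10.47 and 10.62 after 24 h in KO. The channels at 4 h lay below those of every other time. The change at 4 h was -1.17 ± 0.097 (SE, adjusted p = 3.19e-07) in WT and -1.27 ± 0.097 (SE, adjusted p = 1.4e-07) in the cells labelled KO, and most of it was regained by 24 h, with rises from 4 h of 0.77 ± 0.097 (SE, adjusted p = 3.05e-05) and 0.94 ± 0.097 (SE, adjusted p = 4.36e-06). The difference left at 24 h was -0.40 ± 0.097 (SE, adjusted p = 0.00541) in WT and -0.33 ± 0.097 (SE, adjusted p = 0.0188) in KO. Both of these calls were lost with loess normalization alone (adjusted p = 0.223 and 0.420) and without replicate 2 at 0 h (0.0781 and 0.111), and the KO call also without replicate 1 at 0 h (0.0586) or at 24 h (0.187).

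Alox15, the 12/15-lipoxygenase that marks resident peritoneal macrophages, fell late and far. It read 14.66 and 13.87 without LPS, 14.57 and 13.93 after 1 h, 12.81 and 11.95 after 4 h, and 7.21 and 7.76 after 24 h in WT. It read 14.52 and 14.65 without LPS, 14.51 and 14.48 after 1 h, 12.85 and 12.17 after 4 h, and 7.44 and 7.12 after 24 h in KO. At 1 h the change was smaller than the spread between the WT arrays, and at 24 h all 4 channels lay below all others, still well above background. The change at 4 h was -1.89 ± 0.33 (SE, adjusted p = 0.000323) in WT and -2.07 ± 0.33 (SE, adjusted p = 0.000142) in the cells labelled KO. At 24 h it was -6.78 ± 0.33 (SE, adjusted p = 2.8e-09) in WT, a 110.1-fold fall, and -7.30 ± 0.33 (SE, adjusted p = 1.78e-09) in KO, a 157-fold fall. In each genotype a single gene or transcript of 36927 fell further.

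Markers of large peritoneal macrophages fell with these genes. The mean log2 intensity of 9 such markers lay between 12.71 and 13.14 over the 4 channels at 0 h and between 9.83 and 10.20 at 24 h. At 24 h, 8 of the 9 were called lower in WT, where 17% of all were, and 7 in KO, where 15.9% were, among them Vsig4 with -8.04 and -8.54 and Timd4 with -5.30 and -4.70, whereas Selp was called in neither. The mean of the 8 broader macrophage markers lay between 14.32 and 14.59 at 0 h and between 13.26 and 13.65 at 24 h, and among them Csf1r and Lyz2 were called lower and Fcgr1 higher in both genotypes. The mean of the mast cell markers was between 9.05 and 9.76 at 0 h and between 8.07 and 8.79 at 24 h, and its members went both ways. Cpa3, Cma1, Mcpt4, Tpsb2 and Fcer1a were called lower in both genotypes, with log2 changes from -3.04 to -1.38, whereas Hdc, which makes histamine, rose by 3.69 in WT and 3.34 in KO. All 9 large peritoneal macrophage markers stayed above background in every channel. The part of these shifts in the falls of Alox15, Ptgis and Alox5 was not tested.

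**Figure D3:**
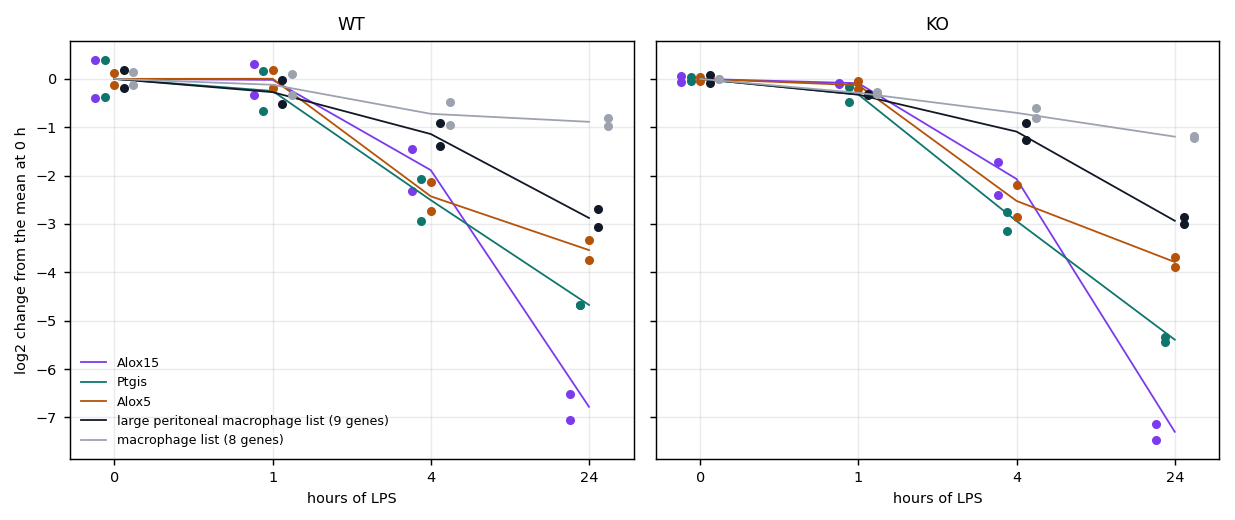
Log2 change from the genotype's mean at 0 h (y axis) against hours of LPS (x axis, evenly spaced) in WT and KO for Alox15, Ptgis, Alox5 and the mean of 9 large peritoneal macrophage markers and of 8 macrophage markers, with points for the 2 arrays and lines for their mean. At 24 h the large peritoneal macrophage list is at -2.88 in WT and -2.93 in KO, between the macrophage list (-0.89 and -1.19) and Alox15 (-6.78 and -7.30).

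Between KO and WT, none of the 10 genes was called at any time in the fit without a block. At 0 h the log2 KO/WT ratios of the 2 arrays were 0.94 and 1.31 for Ptgs2, 0.54 and 0.54 for Ptgs1 and 0.24 and 0.85 for Pla2g4a, so that both arrays had the KO level higher. The mean for Ptgs2 was 1.13 ± 0.27 (SE, limma adjusted p = 0.340), with a 95% interval of 0.50 to 1.75, for Ptgs1 0.54 ± 0.15 (0.436) and for Pla2g4a 0.54 ± 0.16 (0.512). With the replicate number as a block their adjusted p-values were 0.0539, 0.0856 and 0.0540. Ptgs2 is among the genes that the study itself picked from these arrays, so its difference is not independent of that choice. In limma's fit without the block no gene or transcript of 36947 was called at 0 h (0%), while 3 of the 10 and 2135 of all had an unadjusted p under 0.05, and the replicate block called 1.06% of all. Of 12 marker lists for the cell types that the samples could hold, 5 had a higher mean in KO on both arrays at 0 h, 2 a lower one and 5 were split. Those higher in KO on both were B cells (log2 differences of 0.25 and 0.16), T and NK cells (0.41 and 0.036), small peritoneal macrophages and dendritic cells (0.31 and 0.13), large peritoneal macrophages (0.066 and 0.27) and eosinophils (0.050 and 0.10). The mast cell list was split, with -0.033 and 0.71. The part of these shifts in the ratios was not tested.

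At 1 and 4 h the arrays differed more from each other than KO from WT for several genes. The Ptgs2 ratio at 1 h was -0.051 on one array and 1.16 on the other, and that of Ptgis was -0.045 and 1.08, with the higher value on the array with KO in Cy3. Ptgis at 0 h (0.17 and 1.01) and Alox15 at 0 h (-0.14 and 0.78) split the same way. The opposite split, higher with KO in Cy5, was seen for Tbxas1 at 4 h (0.19 and -0.35) and, at 24 h, for Ptgs2 (0.53 and -0.30) and Alox15 (0.23 and -0.64). At 4 h, with the reservation on the labels given above, the mean ratios of the 10 genes lay between -0.28 for Alox5ap and 0.50 for Ptgs2. The replicate block called none of the 10 at 1 h or 4 h. Over all genes and transcripts 0% were called at 1 h and 0.0135% at 4 h without the block, and 0.574% and 0.566% with it. In the fit without the block 2025 of all had an unadjusted p under 0.05 at 1 h and 1589 at 4 h, and 0 of the 10 at either time.

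At 24 h the 2 genes that stood lowest in KO were Tbxas1 and Alox5ap. The log2 ratios were -0.80 and -0.86 for Tbxas1 and -0.52 and -0.89 for Alox5ap. The KO channels lay below the WT channels for 4 of the 10 genes, these 2 with Ptgs1 and Ptgis, and above them for 0. How often all genes separate in this way was not counted. The mean for Tbxas1 was -0.83 ± 0.13 (SE, limma adjusted p = 0.129), with a 95% interval of -1.11 to -0.54, and that for Alox5ap was -0.70 ± 0.15 (0.371), with an interval of -1.05 to -0.36. With the replicate number as a block both were called, at adjusted p-values of 0.00601 and 0.0428, 2 of the 10 genes, where 0.295% of all were called lower (0.585% in either direction). Without the block 0.0244% of all were called, while 3 of the 10 and 1266 of all had an unadjusted p under 0.05. The third of these was Ptgs1, with a mean ratio of -0.36 (limma unadjusted p = 0.0382). Lyz2, itself one of the 8 macrophage markers, was at -1.85 and -1.61 on the same arrays. The mean log2 intensity of the macrophage list was 13.26 in KO and 13.65 in WT on the array of replicate 1 and 13.29 and 13.48 on that of replicate 2. Over the 7 markers other than Lyz2 the KO mean differed from the WT mean by -0.19 and 0.017 on these arrays. At 24 h 3 of the 12 marker lists were lower in KO on both arrays, 4 were higher and 5 were split. The macrophage list was among the 3 only with Lyz2 included. The part of these lists in the difference was not tested.

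Averaged over the time points, none of the 10 was called without the block, and 0.566% of all were. With the block 4 were called, Ptgs2 (0.57, adjusted p = 0.0176) and Ptgis (0.29, 0.0409) higher in KO and Tbxas1 (-0.31, 0.00688) and Alox5ap (-0.36, 0.00921) lower, where 5.99% of all were called, 2.79% higher and 3.2% lower. Tbxas1 and Alox5ap were each lower in KO on 7 of the 8 arrays, Ptgs2 was higher on 6 and Ptgis on 4. The Ptgis mean lay between 0.15 and 0.43 without the block when 1 array was left out. Leaving out the 4 h arrays, at which Furin did not follow the labels, the Ptgs2 mean was 0.60 and again none was called without the block. The change of the KO/WT ratio from 0 h asks whether the response during LPS treatment differed in KO. To 1, 4 or 24 h it was called for none of the 10, with or without the block. At 1 and 4 h 0% of all were called without it and 0% and 0.0325% with it. At 24 h it ranged from -1.01 for Ptgs2 to 0.071 for Lta4h, and 0% of all were called without the block and 0.211% with it. Without the block, an unadjusted p under 0.05 was found at 1 h for 2 of the 10 (512 of all), at 4 h for 0 (1071 of all) and at 24 h for 4 (1231 of all). The smallest at 24 h was that of Ptgs1, with -0.90 ± 0.21 (SE, limma adjusted p = 0.699) and an unadjusted 95% interval of -1.37 to -0.42. For Ptgs2 the interval was -1.89 to -0.13, and the value lay between -1.43 and -0.59 when 1 array was left out.

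**Figure D4:**
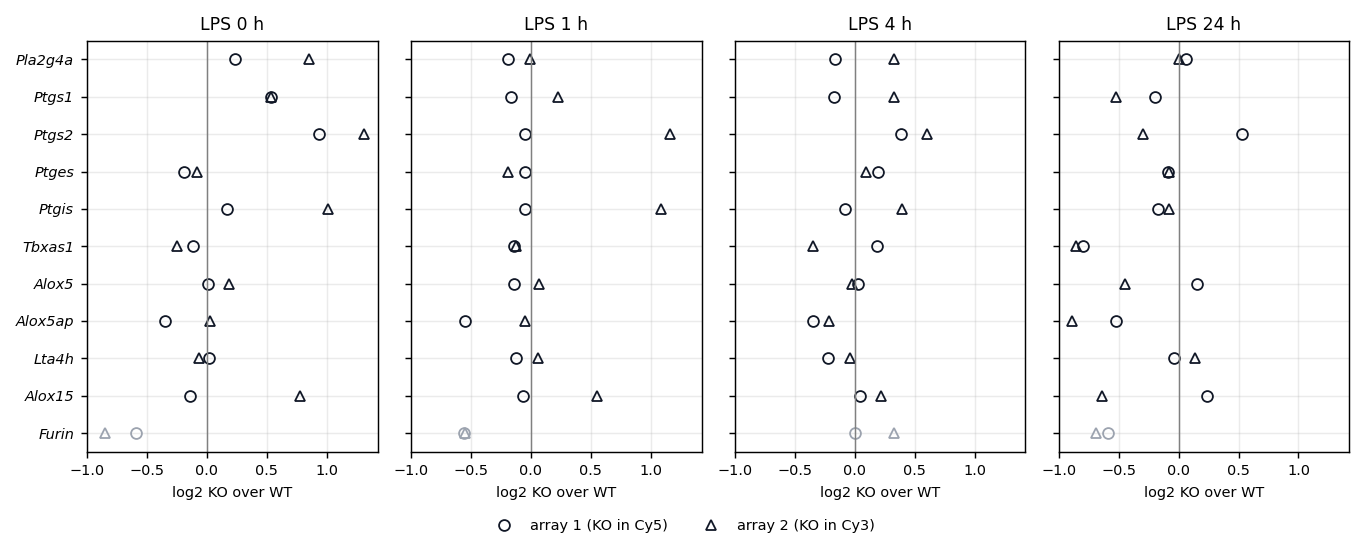
Log2 KO/WT ratio (x axis) of each gene and of Furin (grey) on each array (y axis, one line per gene), by hours of LPS, with circles for the array with KO in Cy5 and triangles for that with KO in Cy3. Tbxas1 is at -0.80 and -0.86 at 24 h, Ptgs2 at 0.94 and 1.31 at 0 h, and Furin at 0.0012 and 0.33 at 4 h.

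A wider list of 56 genes of the same pathway, taken from the known enzymes, transporters and receptors of these lipids, gave the surroundings of these changes. At 1 h, 1 of 55 tested was higher and 5 lower in WT, against 3.39% and 5.12% of all genes and transcripts tested, and 1 and 6 in KO, against 3.09% and 4.37%. Ptger4, the prostaglandin E2 receptor EP4, rose 3.62-fold in WT (log2 1.86 ± 0.20, adjusted p = 3.05e-05) and 2.95-fold in KO. Ptgir, the prostacyclin receptor, fell by 1.32 on the log2 scale in WT and by 1.61 in KO. At 4 h, 6 were higher and 19 lower in WT, against 15.5% and 19.3% of all, and 10 and 21 in KO, against 16.2% and 19.7%. At 24 h the counts were 6 and 18 in WT, against 13.5% and 17%, and 5 and 17 in KO, against 12.7% and 15.9%. The median log2 change of the 55 was -0.15 in WT at both 4 and 24 h.

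By role, 5 of 16 phospholipases and related enzymes were lower at 4 h in WT, led by the lysosomal phospholipase Pla2g15 (-4.74 ± 0.30, adjusted p = 2.62e-08) and the diacylglycerol lipase Daglb (-2.47 ± 0.14, 6.93e-09). Mgll, the monoacylglycerol lipase, was well above background at 4 h and not at 0 h. Its estimated rise at 4 h was 6.72-fold in WT (adjusted p = 2.44e-08), from 0 h readings that were not well above background. In KO, with dim 0 h channels set to the lowest intensity flagged as well above background, it was 6.21-fold. Of 7 other prostaglandin synthases, Ptges2 and Ptges3 were higher and Hpgds, Cbr1, Akr1b3 and Prxl2b lower in both genotypes at 4 h. Ltc4s, which makes leukotriene C4, was called lower at each LPS time in both genotypes and reached -2.85 ± 0.12 (adjusted p = 9.74e-10) at 24 h in WT. Alox12 was not above background at 0 h and, with dim 0 h channels set likewise, was 2.81-fold higher at 24 h in WT and 2.54-fold in KO. The prostaglandin transporter Slco2a1 rose by 0.77 at 4 h and 1.05 at 24 h in WT. Of the receptors, Ptgir and Tbxa2r, the receptors for prostacyclin and thromboxane A2, were lower at 4 and 24 h in both genotypes, and Ptger4, raised at 1 h, was called lower at 24 h in both. Tbxa2r was an estimated 4.48-fold lower at 4 h in WT, where it was not well above background, so the size of this fall is uncertain. None of the 56 was called between KO and WT at any time without the block.

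**Figure D5:**
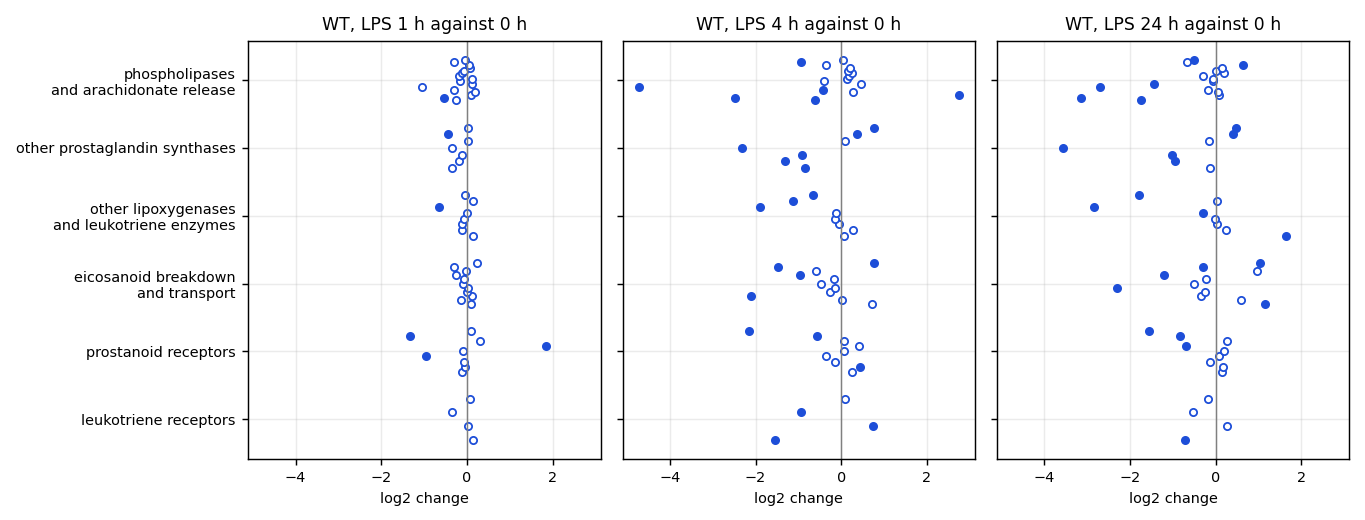
Log2 change from 0 h in WT cells (x axis) of the 55 other pathway genes tested, in 6 lists by role (y axis, points spread within a list), after 1, 4 and 24 h of LPS, with filled points for an adjusted p under 0.05. Filled points lie mostly below 0 at 4 h (6 above, 19 below) and at 24 h (6 above, 18 below).

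The patterns over the 16 channels were compared with those of 12750 named genes. Alox15 was most like Vsig4 (Pearson's r = 0.997), Ccl24 (0.994) and Cfhr2 (0.993). Ptgs2 was most like Il1a (0.990), Socs3 and Isg15, Pla2g4a most like Irf7 (0.992), Ms4a6c and Zbp1, and Ptges most like Gm15348 (0.989), Fabp6 and Myd88. Ptgis was closest to Epas1 (0.993), Tcn2 and Gda, Alox5 to Abca9 (0.995), Hal and Ppp1r9a, Alox5ap to Gusb (0.996), Naglu and Fkbp1b, Lta4h to Ndufb11 (0.994), Pxmp4 and Ndufv3, Tbxas1 to Aplp2 (0.981), Aldh2 and Retsat, and Ptgs1 to Dhrs7 (0.984), Cd300ld and Spaca9. No other gene of the pathway lists was among these 30 names. The channels share arrays and the same time course, and the correlations are descriptions over 16 channels from 8 arrays.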

How the data were processed

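RNA of KO and WT peritoneal macrophages was hybridised by the authors to 8 Agilent 2-colour arrays of 62976 spots, all on 1 slide with 1 scan, and the deposited scanner files (Agilent Feature Extraction 10.7.3) give spot intensity, not normalized. The median pixel intensities were background-corrected with normexp (offset 50), normalized by loess within arrays and by quantiles between arrays in limma 3.58.1 (R 4.3.3, statmod 1.5.0), and spots of a probe were averaged, leaving out control spots and outlier spots. KO/WT log2 ratios were fitted with lmFit and eBayes (36947 genes and transcripts of mean log2 intensity of at least 6, 4 residual degrees of freedom), and the 16 channels with limma's separate-channel analysis (36927 tested, intraspot correlation 0.107). Adjusted p-values are Benjamini-Hochberg over all tested, with a threshold of 0.05. For each gene the brightest probe was used.

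The deposited value table holds log2 ratios by the authors. Against the scanner files' log2 Cy5/Cy3 its columns had r from 0.987 to 0.996 and slopes from 0.951 to 1.07, with medians from 0.0030 to 0.0085, and it served as an alternative. The replicate number equals the dye orientation, and deviations of same-numbered arrays correlated at every one of the 6 pairs of time points (r from 0.475 to 0.679), so that fits with the replicate number as a block are given where they change a call. The other alternatives were the normalization, background correction, dim-probe filter, probe rule, left-out arrays and the methods' t-test. The tests were tried on simulated data whose errors were drawn independently between arrays. That trial cannot say how the fits without the block behave under the correlated deviations given above. The number of arrays limits the precision. The 10 genes, the other lists and the naming rule (all 10 genes, and up to 3 higher and 3 lower pathway genes per comparison) were chosen with earlier results of these data known. Genes named beyond that rule, as members of small counts, were chosen after their values were seen.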

Additional observations from a re-analysis of the deposited data

How the results depend on the processing

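With the replicate number as a block, 2 of the 10 genes were called between KO and WT at 24 h and 4 in the mean of the time points, against 0 for each without it, and 4 against 2 for LPS 1 h in KO; it changed no other count of calls. The methods' t-test after Benjamini-Hochberg adjustment called 0, 2 and 0 genes at 1, 4 and 24 h in WT and 0, 2 and 6 in KO, and at its unadjusted threshold 2, 9 and 10 in WT and 4, 10 and 9 in KO. No shares over all genes are set beside these counts or those with an array left out, so they describe the 10 genes alone. Loess alone called 5 genes from 4 to 24 h in WT against 8, and it moved the call split of all genes at 4 h in WT from 5711 higher and 7112 lower to 3305 and 8587. It also moved the median of all genes by -0.16 from 1 to 4 h. The cause of these differences was not tested.

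When each array in turn was left out, 2 to 3 of the 10 genes were called for LPS 1 h in KO, 9 to 10 for 24 h and 7 to 8 from 4 to 24 h in each genotype, and the other counts did not change. The KO/WT ratio at 1 h then ranged from -0.045 to 1.08 for Ptgis and from -0.051 to 1.16 for Ptgs2, and the change of the Ptgs2 ratio from 0 to 1 h from -1.18 to 0.033, so that these directions reversed. Of the 180 single-gene values, the 105 that were called with or without the block or lay at least 0.5 from 0 on the log2 scale were recomputed. When 1 array was left out, 824 of these recomputed values kept their direction and side of the threshold, 11 lost the call, 2 gained it and 3 reversed. Under the other alternatives 767 kept both, 41 lost the call, 8 gained it, each with the block, and 0 reversed. Without the 4 h arrays, an alternative chosen after seeing the data, the mean KO/WT ratio again called 0 of the 10. With 2 arrays per time point, a ratio that missed the threshold is not shown to be unchanged.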
